A study of Mus musculus with 4 samples.

Results

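Sites bound by the transcription factors Insm1, Neurod1 and Foxa2 were examined around 3 genes of the secretion pathway of pancreatic beta cells, Kcnj11, Abcc8 and Cacna1d. Sites were chosen by position alone, in windows that were set with earlier results of these data known. Every deposited binding site was taken whose summit lay in a window of 285 kb around the neighbouring genes Kcnj11 and Abcc8 (chr7:53250000-53535000, mm9) or in a window of 650 kb around Cacna1d (chr14:30750000-31400000, mm9). This gave 39 of the 60439 sites of the 3 lists (0.0645%), of which 12 were Insm1 sites, 12 Neurod1 sites and 15 Foxa2 sites. The Kcnj11-Abcc8 window held 25 of them and the Cacna1d window 14. Where sites of different factors overlapped by at least 1 bp they were merged into 1 region, and the 39 sites formed 25 regions of the 39412 in the genome.

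Kcnj11 encodes the pore-forming subunit and Abcc8 the sulfonylurea receptor subunit of the ATP-sensitive potassium channel. In beta cells, ATP made from glucose closes this channel, the membrane depolarises, and voltage-gated calcium channels open. Cacna1d encodes the pore-forming subunit of an L-type calcium channel, through which calcium enters and triggers the release of insulin granules. Among the factors, Insm1 binds DNA through zinc fingers and is made in endocrine cells and neurons. Neurod1 belongs to the helix-loop-helix family and recognises E-boxes. Foxa2 carries a forkhead domain and acts in organs that derive from the endoderm.

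The sites came from chromatin immunoprecipitation with sequencing (ChIP-seq), in which DNA bound by a protein is isolated with an antibody and sequenced. All 4 samples (antibodies to Insm1, Neurod1 and Foxa2, and control IgG) used 1 beta cell line, established from islets of RIP1-Tag2 transgenic mice aged 6 weeks. The transgene drives a viral oncogene from an insulin promoter, so the line is a tumour-derived model of beta cells. The mice had a mixed background of the strains C57BL/6, 129/ola and CBA/J. The glucose in the medium was 25 mmol/l, the cells were between passages 10 and 15, and no other treatment is named in the labels. Each factor was represented by 1 site list, so no spread between replicates can be given and no test between factors was made. A site list for IgG was not analysed here, and the number of reads behind each site is unknown. The label of the cells could not be checked against marker genes, because binding sites carry no expression values. In the RefSeq gene table of assembly GRCm38.p6, Kcnj11 and Abcc8 are adjacent protein-coding genes between Nomo1 and Ush1c, and Cacna1d lies between Chdh and Dcp1a. No gene model of the mm9 build was used here, so sites could not be placed in exons, introns or promoters, and some may lie nearer to other genes of the windows.

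The Kcnj11-Abcc8 window carried many sites of each factor, and 21 of its 25 sites lay within 1 stretch of 64.8 kb. It held 8 Insm1, 9 Neurod1 and 8 Foxa2 sites in 14 regions. This corresponds to 28.1 Insm1 sites per Mb, compared with 6.61 over the genome. Neurod1 had 31.6 sites per Mb in the window and 5.54 over the genome, and Foxa2 had 28.1 and 10.8. To set these counts against the background, the genome was laid out in 9250 adjoining tiles of 285 kb. At least 8 Insm1 sites were found in 2.84% of the tiles, at least 9 Neurod1 sites in 1.12% and at least 8 Foxa2 sites in 9.06%. The window was drawn around its genes, whereas the tiles hold genes or none, and it was chosen with earlier results of these data known. These shares therefore describe the window and are not a test.

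Regions with all 3 factors made up 5 of the 14 regions of the Kcnj11-Abcc8 window (35.7%, 95% exact binomial interval 12.8 to 64.9%, counting error only). The background over all regions was 16.9%, and lies inside that interval. Counted by site, 5 of 8 Insm1 sites held both partners (interval 24.5 to 91.5%, background 38.2%). So did 5 of 9 Neurod1 sites (21.2 to 86.3%, background 45.6%) and 5 of 8 Foxa2 sites (24.5 to 91.5%, background 23.5%). The Insm1 and Neurod1 backgrounds lie inside their intervals, and the Foxa2 background lies just below its own. The window was chosen with earlier results of these data known, so these intervals describe it and are not a test. All 3 counts come from the same 5 regions with all 3 factors and are not separate results. At least 5 such regions were found in 1.6% of the tiles of 285 kb. One further region held Neurod1 and Foxa2, so 6 of the 14 regions had at least 2 factors, against 36.4% of all regions. The other 8 regions held a single factor, which was Insm1 in 3, Neurod1 in 3 and Foxa2 in 2. No region held Insm1 with only 1 partner, so each Insm1 site of this window was found either with both partners or alone. Over the whole Insm1 list, 73.3% of sites held at least 1 partner and 38.2% held both. Whether the 8 Insm1 sites of the window differ from the list in this was not tested. A count of 0 in 14 regions allows a share of up to 21.4% (taken as 3 counts of the total; the exact binomial limit is 23.2%), and over the genome 7.5% of regions held Insm1 with Neurod1 alone and 8.03% held Insm1 with Foxa2 alone.

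**Figure D1:**
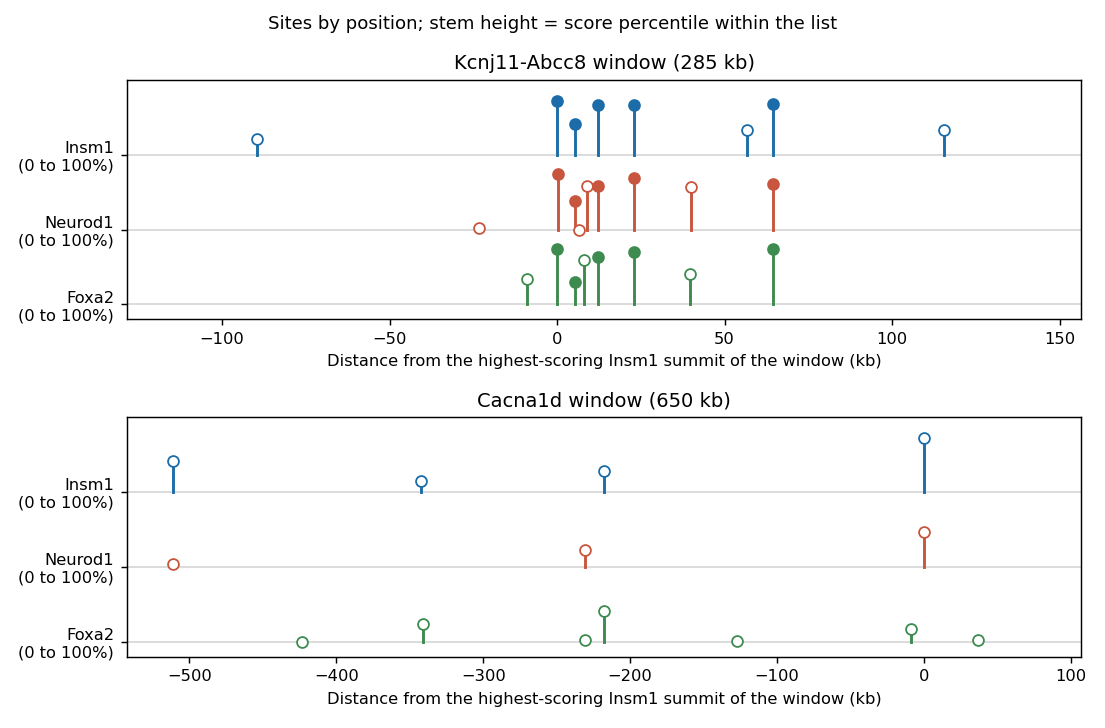
Position of the 25 sites of the Kcnj11-Abcc8 window and the 14 sites of the Cacna1d window, in kb from the highest-scoring Insm1 summit of each window, with 1 lane per factor. The stem height is the share of the factor's list that scored lower (0 to 100%), and filled points are sites in regions with all 3 factors, of which the upper panel has 5 regions within 64.8 kb and the lower panel none.

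All 5 regions with the 3 factors lay within 64.8 kb, from 53378369 to 53443145 on chromosome 7, which is 22.7% of the window. This stretch held 21 of the 25 sites. The gaps between successive regions of this class were 4784, 6704, 10314 and 41347 bp. The median gap between successive regions with all 3 factors over the genome was 149447 bp, and 24.9% of the gaps were no longer than the largest of these 4. Of the 6585 runs of 5 successive such regions in the genome, 27 (0.41%) spanned 64776 bp or less. The left end was denser still, with 6 regions and 12 sites in 12.5 kb, between 53378369 and 53390863. Of the 39305 runs of 6 successive regions of any class in the genome, 18 (0.0458%) were that short. One of the 6 regions was a 57 bp Neurod1 site with the lowest score of its list. Both runs were picked after their spacing had been seen, so these shares describe them and support nothing further.

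The first of the 5 regions, at 53378369 to 53378789, had the highest score of the window in all 3 lists. The score is the authors' whole number per site. No source used here defines its scale, so a score is read only within its own list, by the share of sites in that list that scored lower. The Neurod1 site scored 439 and ranked 103 of 14607, above 99.3% of the list. The Foxa2 site scored 515 and ranked 164 of 28379, above 99.4% of the list. The Insm1 site scored 338 and ranked 889 of 17453, above 94.9% of the list. Its sites were also wide. The Insm1 site measured 420 bp (list median 175 bp), the Neurod1 site 317 bp (147 bp) and the Foxa2 site 376 bp (199 bp). The 3 summits were spread over 126 bp, the widest spread among the 5 regions, with Insm1 and Neurod1 at the ends and Foxa2 34 bp from Insm1.

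The second region, at 53383573 to 53383914, was the weakest of the 5 in each list. The scores were 136 for Insm1, 73 for Neurod1 and 36 for Foxa2, above 53.9%, 50.1% and 39.9% of the sites of their lists. Its Insm1 site was 341 bp wide and its Foxa2 site 113 bp. The summits lay within 19 bp of each other, and those of Insm1 and Neurod1 differed by 1 bp.

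The third region, at 53390618 to 53390863, had the tightest summits of the window, all 3 within 4 bp. It scored 257 for Insm1, 117 for Neurod1 and 105 for Foxa2, above 89.2%, 78.1% and 84.0% of the lists. The fourth region, at 53401177 to 53401554, scored 247, 194 and 168, above 88.1%, 92.1% and 92.6% of the lists. Its Neurod1 and Foxa2 summits were 23 bp apart, and the Insm1 summit lay 80 bp from Neurod1 and 57 bp from Foxa2. The fifth region, at 53442901 to 53443145, stood 41347 bp from the fourth. Its Foxa2 score of 369 ranked 396, above 98.6% of the list, while its Insm1 score of 268 and its Neurod1 score of 128 stood above 90.3% and 81.4%. Here too Neurod1 and Foxa2 had the closest summits, 6 bp apart, with Insm1 52 and 46 bp away.

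**Figure D2:**
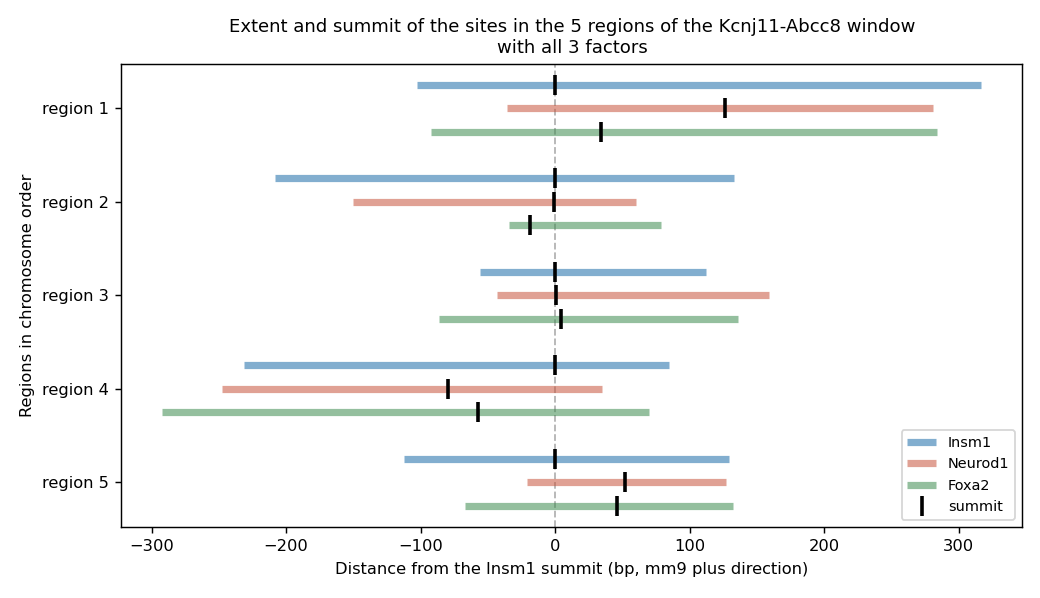
Extent (bars) and summit (black ticks) of the Insm1, Neurod1 and Foxa2 sites in the 5 regions of the Kcnj11-Abcc8 window with all 3 factors, in bp from the Insm1 summit. The summits lie within 4 bp of each other in region 3 and spread over 126 bp in region 1.

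The order of the 5 regions by score was alike at its ends and differed in the middle. The first region was the highest and the second the lowest in each list. Between them, Insm1 and Foxa2 scored the fifth region next, and Neurod1 scored the fourth region next. The distance between the outermost summits had a median of 52 bp in these 5 regions and of 65 bp over the 6665 regions with all 3 factors in the genome.

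Outside these 5 regions the Insm1 sites were lower in their list, whereas the Neurod1 and Foxa2 sites were mixed. The 3 Insm1 sites found alone, at 53288928 to 53289110, 53435202 to 53435343 and 53493768 to 53493898, scored 105, 122 and 121, each under the list median of 130. In the 5 shared regions the lowest Insm1 score was 136, and all 5 stood above the list median. The same direction held over the whole list, where 71.5% of Insm1 sites with both partners and 24.1% of those found alone scored above the median. Neurod1 alone was weak at 53355053 to 53355121 (score 47) and at 53384914 to 53384971 (score 46, the list minimum). It was stronger at 53387344 to 53387550, where the score of 116 stood above 77.7% of the list. That site lay 572 bp beyond a Foxa2 site at 53386525 to 53386772 with a score of 85, above 78.4% of its list. The other Foxa2 site found alone, at 53369202 to 53369445, scored 39, under the list median of 42. The region with Neurod1 and Foxa2 and no Insm1, at 53418151 to 53418352, scored 112 for Neurod1 and 46 for Foxa2. These scores stood above 76.2% and 54.1% of their lists, and the summits were 86 bp apart. All 5 Neurod1 sites and 4 of the 5 Foxa2 sites of the regions with all 3 factors scored above their list median, with backgrounds of 65.3% and 78.1% for such sites. Among the sites found alone, 1 of the 3 Neurod1 sites and 1 of the 2 Foxa2 sites did so, with backgrounds of 32% and 35%. The Neurod1 and Foxa2 sites that shared a region without Insm1 are in neither count, and both scored above their list median.

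Taking all sites of the Kcnj11-Abcc8 window, 5 of 8 Insm1, 7 of 9 Neurod1 and 6 of 8 Foxa2 sites scored above the median of their list, against backgrounds of 49.3%, 49.9% and 49.4%. The median site stood above 71.0% of the Insm1 list, 77.7% of the Neurod1 list and 81.2% of the Foxa2 list. The top decile of the list held 2 of the Insm1, 2 of the Neurod1 and 3 of the Foxa2 sites, where the backgrounds were 9.95%, 9.82% and 10%.

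**Figure D3:**
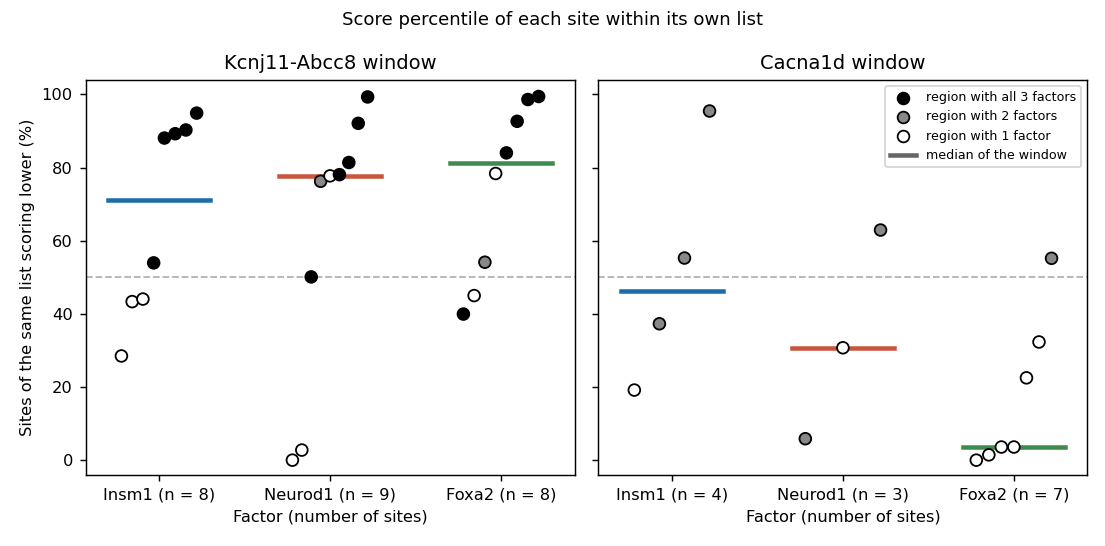
Share of the same list that scored lower (%) for each site of the 2 windows, by factor, with the number of sites under each column, coloured bars at the median and a dashed line at 50%. In the Kcnj11-Abcc8 window the sites of regions with all 3 factors (black) include the highest site of the window for each factor. In the Cacna1d window 6 of the 7 Foxa2 sites lie under 50%.

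The Cacna1d window had a site density near that of the whole genome and no region with all 3 factors. It held 4 Insm1, 3 Neurod1 and 7 Foxa2 sites in 11 regions, or 6.15, 4.62 and 10.8 sites per Mb. Among 4051 genome tiles of 650 kb, 47.3% had at least 4 Insm1 sites, 49.3% at least 3 Neurod1 sites and 47.5% at least 7 Foxa2 sites. All 3 counts were thus near the middle of the genome's range. The count of 0 regions with all 3 factors among 11 allows a share of up to 27.3% by the same limit of 3 counts (exact binomial limit 28.5%), which includes the background of 16.9%. A lack of such regions particular to Cacna1d was therefore not detectable with so few regions. Each window was set against the genome, and the difference between the windows was not tested.

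Partial combinations were found at 3 of the 11 regions of the Cacna1d window (27.3%, 95% exact interval 6.02 to 61.0%). Over the genome 36.4% of regions held at least 2 factors, which lies inside that interval. Insm1 with Neurod1 alone made up 7.5% of all regions, Insm1 with Foxa2 alone 8.03% and Neurod1 with Foxa2 alone 4.0%. The strongest combination of the window lay at 31292664 to 31292838 on chromosome 14 and held Insm1 with Neurod1, with summits 59 bp apart. Its Insm1 score of 352 ranked 793 of 17453, above 95.4% of the list and above every Insm1 site of the Kcnj11-Abcc8 window. The Neurod1 score of 87 stood above 62.9% of its list. The nearest Foxa2 summit was 8.47 kb from the Insm1 summit, with a score of 28. Of the 795 Insm1 sites in the genome that scored at least 352, 9.81% held Neurod1 without Foxa2 and 81.5% held both partners. The second combination, Insm1 with Neurod1 at 30781262 to 30781530, scored 138 and 48, and its summits were 108 bp apart. The third, Insm1 with Foxa2 at 31074778 to 31074988, scored 114 and 47, with summits 32 bp apart. Its Foxa2 site was the highest of the 7 in the window and stood above 55.2% of the list.

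The 7 Foxa2 sites of the Cacna1d window mostly scored low in the Foxa2 list, the longest of the 3 lists. Their density of 10.8 per Mb was that of the whole genome. With lists of equal length (the 14607 highest scores of each), the window had 1 Foxa2 site, beside 4 Insm1 and 3 Neurod1 sites. The 7 scores were 19, 20, 21, 21, 28, 32 and 47, where the list starts at 19 and has a median of 42. Only 1 of the 7 was above that median, and the median site stood above 3.59% of the list. With the window widened by 50 kb at both ends, which added 1 Foxa2 site, that value was 13%. Of the 7, 6 were in regions without a partner (85.7%, exact interval 42.1 to 99.6%). The background over the whole Foxa2 list was 59.8%, which lies inside that interval. None of the 6 sites without a partner scored above the list median, where the background for Foxa2 sites found alone was 35%. Whether the 6 sites differ from that background was not tested. Pairs of nearby sites that did not overlap were found at 2 places. A Foxa2 site at 31061848 to 31061924 (score 21) ended 194 bp before a Neurod1 site at 31062118 to 31062265 (score 59). An Insm1 site at 30950327 to 30950489 (score 96) ended 1334 bp before a Foxa2 site at 30951823 to 30951979 (score 32). The remaining Foxa2 sites, at 30869535 to 30869607, 31165150 to 31165402, 31284085 to 31284389 and 31329603 to 31329717, scored 19, 20, 28 and 21.

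The gaps between neighbours among the 11 regions ran from 194 bp to 118683 bp. Of the 12 Insm1 sites of both windows together, 8 held at least 1 partner, where the background was 73.3%. For Neurod1 the count was 8 of 12, with a background of 76.7%, and for Foxa2 it was 7 of 15, with a background of 40.2%. These counts lay near the backgrounds.

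**Figure D4:**
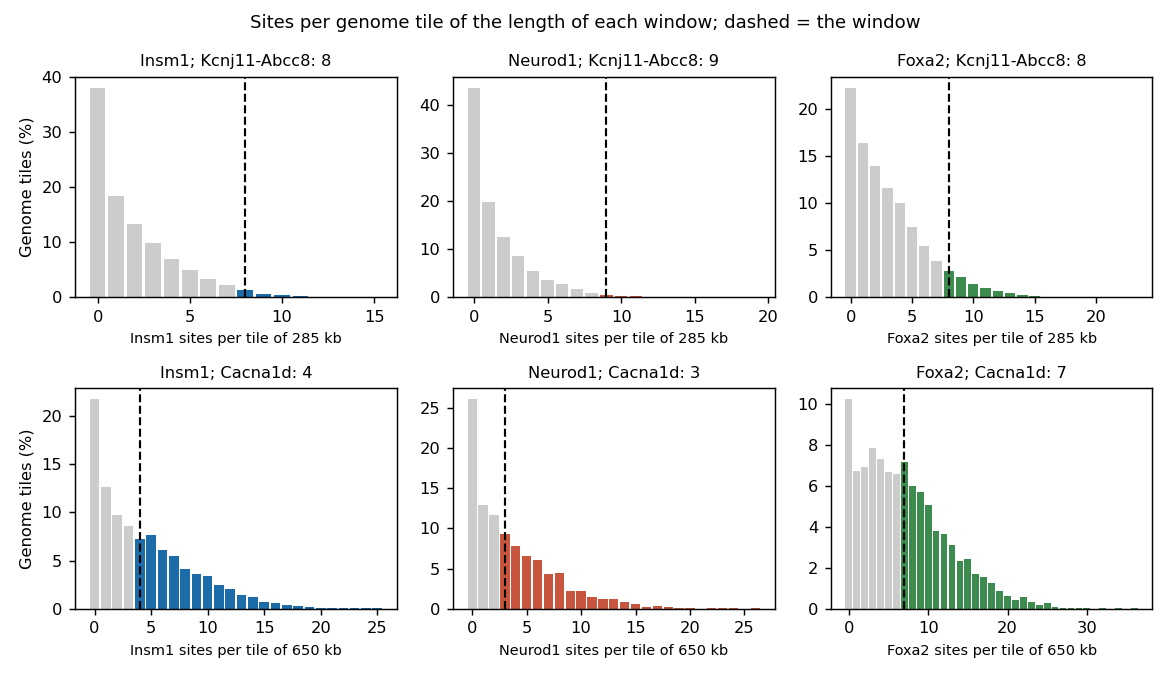
Share of genome tiles (%) by number of sites per tile, for tiles of 285 kb (upper row) and 650 kb (lower row), with dashed lines at the counts of the Kcnj11-Abcc8 and Cacna1d windows and coloured bars for tiles with at least as many. The coloured share is 2.84%, 1.12% and 9.06% in the upper row and 47.3%, 49.3% and 47.5% in the lower row.

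The position rule left a few sites outside. The nearest summits below the Kcnj11-Abcc8 window were those of Insm1, Neurod1 and Foxa2 at 28.9, 28.8 and 28.9 kb from its start. Widening the window by 50 kb at both ends took in these sites and gave 6 regions with all 3 factors. Above it the nearest summit of any factor was a Neurod1 summit 179.7 kb from its end. Inside, the outermost sites were both Insm1 sites, 39.0 kb from the start and 41.2 kb from the end. At the Cacna1d window the nearest outside summits were Foxa2 summits, 47.3 kb before the start and 130.3 kb after the end. The outermost sites inside were an Insm1 site 31.4 kb from the start and a Foxa2 site 70.4 kb from the end.

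Sequences of the sites themselves are not printed, since no mm9 genome was used here. The RefSeq promoter table of GRCm38.p6 had an entry for 1 of the 3 genes, Cacna1d, with 2 transcription starts. The 250 bases before each start are shown because E-boxes (CANNTG) and forkhead cores (TGTTTAC or TATTTAC) are the known target letters of Neurod1 and Foxa2, and matches on either strand are in capitals. The first stretch is chr14:30491157-30491406 and the second is chr14:30353487-30353736, both on the minus strand. These positions are on another build than the binding sites, and whether a site lies in either stretch was not tested.
Cacna1d first start: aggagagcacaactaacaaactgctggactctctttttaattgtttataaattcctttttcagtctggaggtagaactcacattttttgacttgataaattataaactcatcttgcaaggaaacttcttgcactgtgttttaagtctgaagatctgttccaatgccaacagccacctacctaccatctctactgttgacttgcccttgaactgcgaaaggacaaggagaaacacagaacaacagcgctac
Cacna1d second start: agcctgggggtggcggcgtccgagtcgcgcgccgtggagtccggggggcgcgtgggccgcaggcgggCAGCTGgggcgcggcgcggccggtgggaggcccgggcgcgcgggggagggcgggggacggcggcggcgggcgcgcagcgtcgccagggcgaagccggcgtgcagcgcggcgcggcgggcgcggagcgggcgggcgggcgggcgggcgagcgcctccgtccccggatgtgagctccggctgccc
Other spellings of the forkhead core were not searched. The first stretch had a GC content of 39.6% and no match to either motif as spelled above. The second had a GC content of 86.4% and 1 E-box, of the form CAGCTG, and no forkhead core. Among 32851 promoter stretches of the same length in the table, 66.2% held CANNTG, 13.0% held CAGCTG, 14.4% held CAGATG or its complement CATCTG (in neither Cacna1d stretch) and 5.76% held a forkhead core. A match is a run of letters, and neither its presence nor its absence shows whether a factor binds there.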

How the data were processed

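Per the labels, Insm1, Neurod1, Foxa2 and control IgG were immunoprecipitated from 1 mouse beta cell line and sequenced, with 1 sample each. The design text speaks of 6 samples and of repeated Insm1 and Foxa2 precipitations, and does not say how repeats were combined. The tools named in the submitters' processing notes are CASAVA, Bowtie 0.12.7 and MACS 1.4, on the mm9 build, without settings, thresholds or filters. Each line of the deposited lists gives chromosome, start, end, an inner position read as the summit, and a whole-number score made by the authors. Coordinates are given as deposited. The score was used only within a list, and depth is unknown.

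Sites were taken by summit position and merged where they overlapped by at least 1 bp. Tiles were laid from the first base of each chromosome to its last site, and a region was counted in a tile by its centre. Genome densities use the same length, 2639 Mb in all. Where a share is given with an interval, it is the 95% exact Clopper-Pearson interval, which covers counting error only. Other shares are given without one. A count of 0 regions also carries the limit that 3 counts of the total give. Named are all regions of the windows with the 3 factors, the highest site of each factor in each window and every class with fewer than 6 regions. The 6 Foxa2 sites found alone at Cacna1d were added after their values were seen. Counts were repeated with sites above the list median, lists of equal length, no sites of at most 60 bp, moved window edges, other overlap rules and shifted or filled tiles. Counting was tested on simulated lists. The windows, genes and comparisons were chosen with earlier results of these data known. Other channel genes were not placed, for lack of an mm9 annotation. Python 3.11.15, numpy 2.4.6, pandas 2.3.3, scipy 1.17.1 and matplotlib 3.10.9 were used.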

Additional observations from a re-analysis of the deposited data

How the results depend on the processing

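Of 79 alternative values over 22 results, 65 stayed within 1.5 times the main count or median, or within the exact interval of the main share. Regions with all 3 factors numbered between 4 and 6 in the Kcnj11-Abcc8 window, and 0 in the Cacna1d window, under each overlap, threshold, length and edge setting tried. Only sites above the list median gave 5 Insm1 sites in the Kcnj11-Abcc8 window, and 2 Insm1, 1 Neurod1 and 1 Foxa2 site in the Cacna1d window, which that setting can only lower. Lists of equal length also left 1 Foxa2 site at Cacna1d. With only tiles that hold a site of any list, the tile shares for Insm1, Neurod1, Foxa2 and regions with all 3 factors were 3.51%, 1.39%, 11.2% and 1.98% at the Kcnj11-Abcc8 length, and 52.1%, 54.4% and 52.3% for the 3 factors at the Cacna1d length, from fewer tiles. The alternatives that moved a median score percentile were chosen after seeing the data: narrowing the Cacna1d window by 50 kb at both ends gave 46.8% for Neurod1 and widening it gave 13% for Foxa2, by 1 site lost and 1 gained. No paired analysis was possible because each factor has 1 list. The unknown read depth and the lack of replicates limit all counts, and sites under the authors' threshold are not seen.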
